A study of Mus musculus with 36 samples.

Results

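The genes described here are 37 members of the NRF2 antioxidant and detoxification programme, chosen by name: the factor Nfe2l2 and its inhibitor Keap1, and 35 genes known as their targets. All 37 were found among the 136300 genes of the liver table and all 37 passed the filter on low counts. In the table of mouse embryonic fibroblasts (MEFs), which holds 32266 genes, all 37 were listed and 30 passed the filter on low values. The choice used names alone and no measured value, but earlier results of these data were known when it was made.

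Polyadenylated RNA was sequenced from 12 livers and 24 MEF cultures, in 12 groups of 3. The liver groups were fasted Vps15LKO, fasted wild type, fed Vps15LKO and fed wild type. All were males of 4 weeks, killed at zeitgeber time 14, which is 2 h after lights off, with food at will or after a fast of 24 h. The knockout animals are labelled Ttr CRE+, Vps15f/f, so that Cre under the Ttr promoter, which is active in hepatocytes, is meant to remove the floxed part of the gene there and not in other liver cells. Vps15, whose gene symbol is Pik3r4, is a partner of the lipid kinase Vps34 and is needed for autophagy and endosome traffic. The MEFs carried Vps15f/f and received adeno-CRE (labelled Vps15KO) or adeno-GFP (labelled WT). Their media were basal (high glucose, no serum), methionine-free for 4 h, or methionine-free for 4 h followed by methionine for another 1 h or 4 h. Whether the 3 libraries of a group came from separate animals or cultures is not said beyond the labels. The p-values therefore set differences against the spread between libraries of a group, whatever its source. That spread was estimated over all 12 liver or all 24 MEF libraries.

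NRF2 is a transcription factor that KEAP1 holds in the cytoplasm and marks for destruction while the cell is unstressed. Oxidants and electrophiles modify KEAP1, and NRF2 then gathers in the nucleus, pairs with small MAF proteins and binds antioxidant response elements (AREs) near genes for quinone reduction, glutathione synthesis, thioredoxin recycling, NADPH supply, conjugation, export and iron storage. In liver these genes protect hepatocytes against drugs, bile acids and oxidants. NRF2 is controlled largely through the stability of the protein, which RNA levels do not show.

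Liver libraries held 9110836 to 12870944 counts, and the 37 members took 1.61 to 1.81% of them in fasted knockout livers and 0.657 to 0.707% in fasted wild-type livers, with 1.57 to 1.81% in fed knockout and 0.603 to 0.624% in fed wild-type livers. Pik3r4 had 21.1, 23.97 and 18.2 CPM (counts relative to the size of the library, after TMM scaling for composition) in fasted knockout livers, against 21.005, 24.7 and 21.2 CPM in fasted wild-type livers, and did not differ past the threshold in either state (adjusted p = 0.663 fasted and 0.312 fed). Counts of the entire gene cannot show loss of a floxed part, so these values do not check the labels. The liver samples are labelled hepatocyte, but the RNA came from whole powdered liver. Summed over 10 hepatocyte markers, the level was 14355 to 17028 CPM in fasted knockout livers, against 42447 to 43691 CPM in fasted wild-type livers. With food it was 13436 to 15848 CPM in knockout livers and 33366 to 35564 CPM in wild-type livers. The 10 markers of macrophages and Kupffer cells, the resident macrophages of liver, summed to 2139 to 2406 CPM in fasted knockout livers and 427 to 600 CPM in fasted wild-type livers, none of them at 0. In fed animals the sum was 2284 to 2579 CPM in knockout livers and 1318 to 1713 CPM in wild-type livers. Of the other marker lists, 5 of 6 tested cholangiocyte, 6 of 10 stellate cell, 4 of 5 neutrophil, 3 of 6 endothelial and 1 of 5 lymphocyte markers passed as higher in fasted knockout livers. Of all tested genes 28.2% did. In fed animals the lymphocyte sum was lower in knockout livers, at 7.41 to 10.4 CPM, against 10.5 to 13.4 CPM in wild-type livers, so the groups nearly touched. Fasted, that sum went the other way, at 7.14 to 12.7 CPM in knockout livers and 4.63 to 6.31 CPM in wild-type livers. Sums were not tested. The fed endothelial sums overlapped, and the fed cholangiocyte, stellate cell and neutrophil sums were higher in every knockout library. In bulk tissue, fewer cells of a type and less RNA per cell cannot be told apart, and the part of these shifts in the results on members was not tested.

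The sequence that NRF2 with a small MAF protein is known to read holds the core TGACNNNGC, searched here on both strands of the RefSeq promoter windows (build GRCm38.p6) from 250 bases before to 50 bases after each start. The core can overlap the AP-1 site, TGACTCA on one strand and TGAGTCA on the other. Of the 37 members 30 had a window, and 10 of the 30 (33.33%) held the core, against 13.99% of 27025 genes with a window. By window, 28.95% of 38 member windows and 12.39% of all 32851 windows held it. A match is a description of letters, and no match says only that these letters are not in this window. The stretches below show cores in members that were higher in knockout liver (Srxn1, Pgd, Txnrd1, G6pdx and Abcc4), in members that did not pass there (Gclm and Prdx1) and in Nfe2l2 itself. Letters run along the gene from 5′ to 3′ and capitals mark the core, or its reverse complement.
Srxn1 (chr2:152105542-152105571, plus strand): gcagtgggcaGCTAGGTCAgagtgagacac
Pgd (chr4:149166060-149166089, minus strand): atttcagagcTGACATTGCactgatcggac
Txnrd1 (chr10:82859094-82859142, plus strand): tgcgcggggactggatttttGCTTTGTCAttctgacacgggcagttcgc
G6pdx (chrX:74428909-74428957, minus strand): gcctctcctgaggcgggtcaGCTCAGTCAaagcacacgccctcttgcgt
Abcc4 (chr14:118706220-118706264, minus strand): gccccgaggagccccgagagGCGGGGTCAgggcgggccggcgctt
Gclm (chr3:122245403-122245451, plus strand): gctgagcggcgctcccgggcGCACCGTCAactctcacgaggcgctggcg
Prdx1 (chr4:116685446-116685494, plus strand): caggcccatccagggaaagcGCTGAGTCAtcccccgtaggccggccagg
Nfe2l2 (chr2:75704875-75704913, minus strand): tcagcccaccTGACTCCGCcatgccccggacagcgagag
The core thus stood in promoter windows of members that passed in knockout liver and of members that did not. In Srxn1 and Pgd it began after the start, at bases 29 and 4, and in the others shown before it. The Pgd, Txnrd1 and G6pdx stretches lie inside the span of the gene, as their windows belong to inner starts. In Prdx1 the stretch also holds the AP-1 site, so there the same letters read as both.

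The first comparison asked how the programme differed between Vps15LKO and wild-type liver. Most members were higher in the knockout: 31 of 37 passed an adjusted p of 0.05 in fasted animals, where 56.2% of all 23875 tested genes did. Of these 28 were higher, as were 28.2% of all genes, and 3 lower, as were 28.1%. In fed animals 32 passed, against 46.3% of all genes, with 32 higher, against 23.4%, and 0 lower, against 23%. The 5 that did not pass fed were Nfe2l2, Keap1, Gclm, Prdx1 and Ftl1. The 28 members higher after a fast were all among the 32 higher in fed animals. How many of all tested genes were higher in both states was not counted, here or for the groups of members below. The median log2 fold change of members was 1.44 fasted and 1.39 fed, beside 0.01 over all tested genes in each state. In fasted animals 12 of the 37 passed with a log2 of 2 or more, as did 8.07% of all tested genes, and 5 of these with 4 or more, as did 2.05% of all genes: Cbr3, Gpx2, Srxn1, Gsta1 and Gstm3. 

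**Figure D1:**
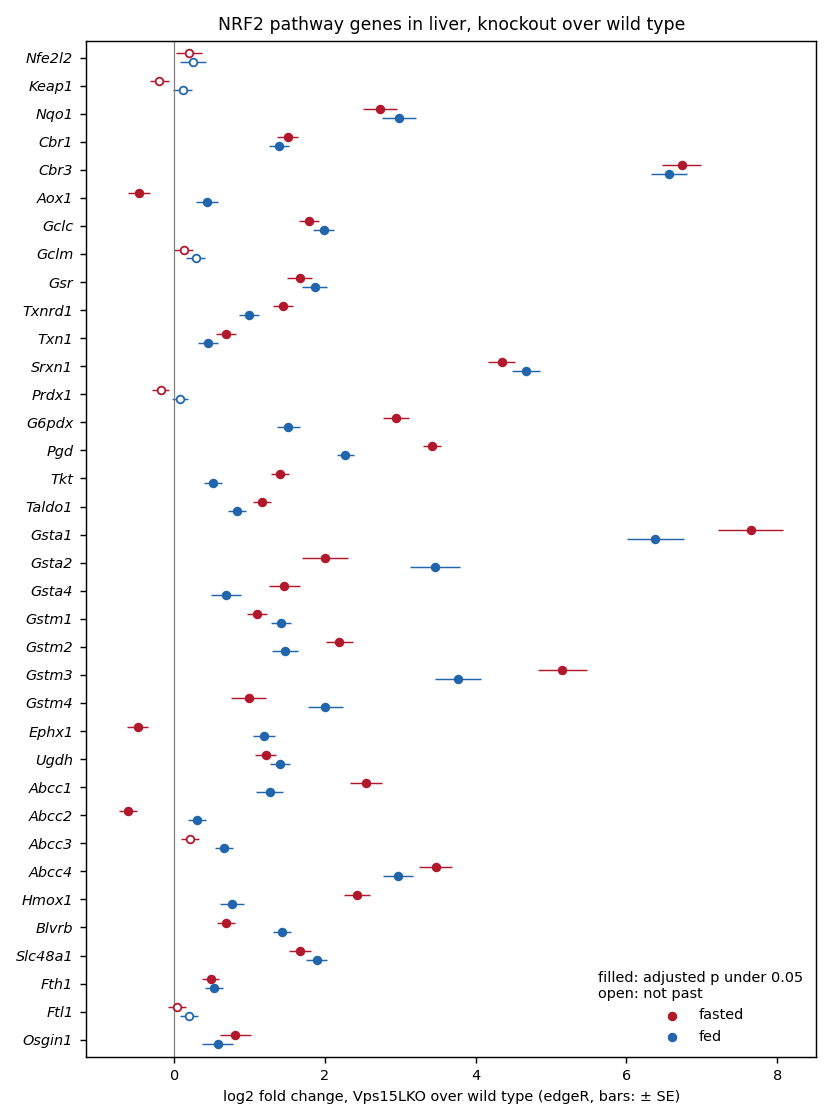
Each point is the log2 fold change of a member, Vps15LKO over wild type, in fasted (red) and fed (blue) livers, with its standard error as a bar; filled points passed an adjusted p of 0.05. Members run down the page by role. Cbr3 and Gsta1 lie farthest right, Keap1, Aox1, Prdx1, Ephx1 and Abcc2 lie on both sides of 0, and Gpx2, with no count in fasted wild-type liver, is left out.

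Under the main scaling the regulators themselves did not pass. Nfe2l2 had 104, 149.8 and 86.1 CPM in fasted knockout livers, against 99.7, 102 and 94.5 CPM in fasted wild-type livers. In fed animals it had 134, 114 and 114 CPM in knockout livers, against 108, 85.9 and 111 CPM in wild-type livers. The groups overlapped in fasted animals and not in fed ones. For Nfe2l2 the log2 fold change was 0.20 (SE 0.17, adjusted p = 0.34) fasted and 0.25 (SE 0.17, adjusted p = 0.242) fed. Keap1, which encodes the adaptor that marks NRF2 for destruction, had 44.4, 53.8 and 44.1 CPM in fasted knockout livers and 52.2, 64.5 and 46.5 CPM in fasted wild-type livers. Its groups overlapped, with a log2 fold change of -0.20 (SE 0.13, adjusted p = 0.206) fasted and 0.11 (SE 0.13, adjusted p = 0.501) fed. With library sizes alone in place of composition factors, which shifts the median of all genes by 0.52, the fasted Keap1 value became 0.32 (adjusted p = 0.0467). In fed livers that scaling gave all 37 members as higher, Nfe2l2 and Keap1 among them, with 9968 of all 23875 tested genes.

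All 4 genes of quinone and carbonyl metabolism passed in both states. Nqo1 (chromosome 8, 107388225 to 107403206, minus strand, mm10) encodes a quinone reductase that is the usual reporter of NRF2. Nqo1 had 67.1, 94.3 and 87.2 CPM in fasted knockout livers, against 16.8, 9.27 and 11.3 CPM in fasted wild-type livers. Fed knockout livers had 97.9, 90.04 and 68.1 CPM of it, and fed wild-type livers 7.895, 12.4 and 12.1 CPM. The knockout libraries were all higher, and within each genotype fasted and fed libraries overlapped. On the log2 scale the Nqo1 difference was 2.74 (SE 0.23, adjusted p = 9.47e-08) fasted and 2.98 (SE 0.23, adjusted p = 8.33e-08) fed. Cbr3 (chromosome 16, 93683215 to 93690990, plus strand) encodes a carbonyl reductase. Cbr3 had 65.8, 111 and 76.5 CPM in fasted knockout livers, against 0.773, 0.877 and 0.687 CPM in fasted wild-type livers. Its level with food at will was 112, 102 and 108 CPM in knockout livers and 1.35, 0.763 and 1.22 CPM in wild-type livers. No wild-type library reached 2 CPM, and no knockout library was below 60 CPM. The fitted log2 fold change of Cbr3 was 6.74 (SE 0.26, adjusted p = 2.71e-10) fasted and 6.57 (SE 0.24, adjusted p = 2.24e-10) fed. Cbr1, its neighbour on chromosome 16 and also a carbonyl reductase, was 1.504 higher on the log2 scale fasted and 1.39 higher fed. Aox1, aldehyde oxidase, was the exception: 52.2, 72.5 and 71.4 CPM in fasted knockout livers against 79.5, 98.5 and 92.9 CPM in fasted wild-type livers, and 70.3, 81.8 and 65.9 CPM in fed knockout livers against 60.8, 46.8 and 53.96 CPM in fed wild-type livers. It was lower fasted, at -0.47 (SE 0.15, adjusted p = 0.0134), and higher fed, at 0.43 (SE 0.15, adjusted p = 0.0248). The fasted Aox1 call was lost without fasted knockout library a, at -0.33 (adjusted p = 0.0741), and without fasted wild-type libraries b, at -0.37 (adjusted p = 0.0784), or c, at -0.42 (adjusted p = 0.0509). The fed call was lost without fed knockout library b, at 0.34 (adjusted p = 0.102), and without fed wild-type libraries b, at 0.34 (adjusted p = 0.11), or c, at 0.43 (adjusted p = 0.0608).

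Of the 4 genes for glutathione synthesis and recycling, 3 rose in both states. Gclc (chromosome 9, 77754535 to 77794485, plus strand) encodes the catalytic subunit of glutamate-cysteine ligase, the first step of glutathione synthesis. Gclc had 901, 947 and 1179.8 CPM in fasted knockout livers, against 269, 290.0 and 316 CPM in fasted wild-type livers. In fed animals it had 1099.8, 997 and 1044 CPM in knockout livers, against 235, 293 and 267 CPM in wild-type livers. The lowest knockout library stood far above the highest wild-type library in both states. For Gclc the log2 fold change was 1.79 (SE 0.13, adjusted p = 3.58e-08) fasted and 1.98 (SE 0.13, adjusted p = 2.95e-08) fed. Gclm encodes the modifier subunit of the same enzyme. Gclm had 193, 249 and 262 CPM in fasted knockout livers, against 195, 235 and 215 CPM in fasted wild-type livers. Fed knockout livers had 233, 239 and 211 CPM of it, and fed wild-type livers 189.6, 172 and 199 CPM. The fasted groups overlapped, the fed ones did not, and neither contrast passed, with 0.13 (SE 0.13, adjusted p = 0.423) fasted and 0.29 (SE 0.13, adjusted p = 0.0799) fed. The subunit genes were not tested against each other. Gsr, glutathione reductase, had 159, 224 and 224 CPM in fasted knockout livers, against 63.4, 59.6 and 68.6 CPM in fasted wild-type livers. On the log2 scale the Gsr difference was 1.66 (SE 0.16, adjusted p = 4.52e-07) fasted and 1.86 (SE 0.16, adjusted p = 2.98e-07) fed. Gpx2 (chromosome 12, 76792333 to 76795554, minus strand), a glutathione peroxidase known mainly from gut epithelium, had 7.27, 10.3 and 9.65 CPM in fasted knockout livers and no count in any of the 3 fasted wild-type libraries. Taking 3 counts in each wild-type library as the limit that 0 allows (counting error alone), it was at least 23.2-fold higher in fasted knockout livers. In fed livers Gpx2 had 19.6, 15.5 and 17.2 CPM in the knockout, against 0.623, 0.654 and 0.713 CPM in wild type, with a log2 fold change of 4.69 (SE 0.25, adjusted p = 1.49e-08).

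In the thioredoxin and peroxiredoxin group Srxn1, Txnrd1 and Txn1 passed as higher and Prdx1 did not pass. Srxn1 (chromosome 2, 152105516 to 152111376, plus strand) encodes sulfiredoxin, which restores over-oxidised peroxiredoxins. Srxn1 had 847, 1049 and 1244 CPM in fasted knockout livers, against 50.9, 51.2 and 52.5 CPM in fasted wild-type livers. Its level with food at will was 994, 1106 and 737 CPM in knockout livers and 35.4, 39.9 and 36.04 CPM in wild-type livers. Every knockout library lay far above every wild-type library, and the fed wild-type libraries were lowest. The fitted log2 fold change of Srxn1 was 4.34 (SE 0.18, adjusted p = 4.68e-10) fasted and 4.67 (SE 0.18, adjusted p = 2.54e-10) fed. Txnrd1, cytosolic thioredoxin reductase, had 351, 351 and 438 CPM in fasted knockout livers, against 139.8, 146 and 134 CPM in fasted wild-type livers, a log2 fold change of 1.44 (SE 0.14, adjusted p = 3.45e-07). In fed livers its log2 fold change was 1.00 (SE 0.13, adjusted p = 2.17e-05). Txn1, thioredoxin itself, was 0.68 higher fasted and 0.45 higher fed, and the fed call was lost without fed knockout library b, at 0.29 (adjusted p = 0.0718). Prdx1, the abundant peroxiredoxin of the cytosol, had 431, 526 and 532 CPM in fasted knockout livers and 582, 565 and 541 CPM in fasted wild-type livers. It did not pass in either state, with -0.18 (SE 0.11, adjusted p = 0.175) fasted and 0.08 (SE 0.11, adjusted p = 0.603) fed, although its fasted libraries did not overlap. With library sizes alone its fasted value was 0.33 and passed (adjusted p = 0.0116).

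All 4 genes of NADPH supply through the pentose phosphate pathway were higher in both states. G6pdx (chromosome X, 74409483 to 74429194, minus strand) encodes glucose-6-phosphate dehydrogenase, the entry step. G6pdx had 65.4, 52.3 and 74.5 CPM in fasted knockout livers, against 7.99, 7.77 and 9.21 CPM in fasted wild-type livers. In fed animals it had 48.04, 60.002 and 65.2 CPM in knockout livers, against 18.2, 23.004 and 19.5 CPM in wild-type livers. The wild-type groups stood apart from each other, and the knockout groups overlapped. For G6pdx the log2 fold change was 2.94 (SE 0.17, adjusted p = 5.00e-09) fasted and 1.51 (SE 0.16, adjusted p = 1.55e-06) fed. Pgd (chromosome 4, 149149991 to 149166771, minus strand) encodes the next NADPH-making enzyme. Pgd had 330.1, 348 and 386 CPM in fasted knockout livers, against 34.4, 31.8 and 32.7 CPM in fasted wild-type livers. Fed knockout livers had 284, 345 and 303 CPM of it, and fed wild-type livers 61.8, 68.2 and 63.3 CPM. Here too the wild-type livers were lowest when fasted, and the knockout livers of both states overlapped. On the log2 scale the Pgd difference was 3.43 (SE 0.12, adjusted p = 1.40e-10) fasted and 2.27 (SE 0.11, adjusted p = 2.41e-09) fed. Tkt and Taldo1, the enzymes of the non-oxidative branch, were higher by 1.41 and 1.16 on the log2 scale fasted and by 0.51 and 0.83 fed.

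All 7 glutathione S-transferases, which couple glutathione to electrophiles, were higher in both states. Gstm1 had the highest level per kilobase of exon among the 37 members in all 4 groups. Gstm1 had 2295, 2846 and 2659.5 CPM in fasted knockout livers, against 1149, 1344 and 1150.2 CPM in fasted wild-type livers. Its level with food at will was 2804, 2346 and 2254 CPM in knockout livers and 917, 915 and 946 CPM in wild-type livers. The knockout livers did not overlap the wild-type livers, at 1.10 (SE 0.13, adjusted p = 3.48e-06) fasted and 1.41 (SE 0.13, adjusted p = 5.22e-07) fed. Gstm3 (chromosome 3, 107963696 to 107969283, minus strand) is a mu-class enzyme in the same cluster on chromosome 3. Gstm3 had 539, 802 and 807 CPM in fasted knockout livers, against 18.7, 27.6 and 14.02 CPM in fasted wild-type livers. In fed animals it had 555, 917 and 368 CPM in knockout livers, against 43.4, 46.01 and 45.5 CPM in wild-type livers. Fed knockout library b was high and library c low, yet all stood above wild type. The fitted log2 fold change of Gstm3 was 5.15 (SE 0.33, adjusted p = 1.07e-08) fasted and 3.77 (SE 0.31, adjusted p = 1.55e-07) fed. Gsta1 (chromosome 9, 78230656 to 78242684, plus strand) is an alpha-class enzyme with under 2 CPM in every wild-type library. Gsta1 had 81.03, 107 and 132 CPM in fasted knockout livers, against 0.902, 0.501 and 0.137 CPM in fasted wild-type livers. Fed knockout livers had 62.3, 129 and 65.2 CPM of it, and fed wild-type livers 0.831, 0.872 and 1.32 CPM. In fed knockout livers library b again stood high, with libraries a and c close to each other. For Gsta1 the log2 fold change was 7.65 (SE 0.43, adjusted p = 3.58e-09) fasted and 6.38 (SE 0.38, adjusted p = 9.53e-09) fed. Gsta2 was higher by 2.00 fasted and 3.46 fed, Gstm2 by 2.19 and 1.47, Gstm4 by 0.99 and 2.01, and Gsta4 by 1.46 and 0.68. Without fed knockout library b the fed Gsta4 value was 0.32 (adjusted p = 0.0713), no longer past the threshold. Some of these genes are near copies of others: 80.58% of the 100-base words of Gsta1 transcripts also occur in other genes, 28.37% of those of Gsta2, 13.78% of Gstm3 and 5.86% of Gstm1. How reads that match several genes were counted is not stated, so the split among these copies is uncertain.

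**Figure D2:**
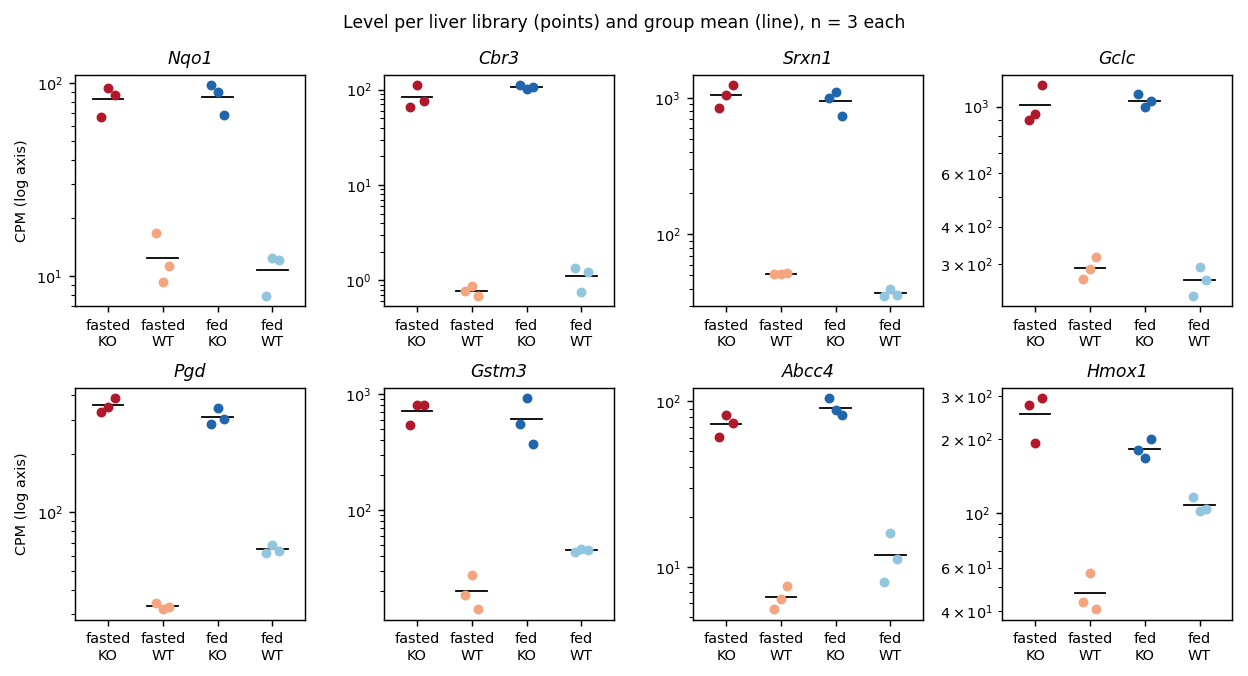
Level of 8 members in each liver library, in CPM on a log axis, by group (points: 3 libraries a group, lines: means). In each panel the knockout libraries lie above the wild-type libraries of the same state. For Pgd, Gstm3, Abcc4 and Hmox1 the fasted wild-type libraries lie lowest.

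The remaining conjugation and export genes were mixed. Ephx1, microsomal epoxide hydrolase, had 537, 744 and 572 CPM in fasted knockout livers, against 803, 889.8 and 899 CPM in fasted wild-type livers. Fed, it had 771, 665 and 638 CPM in knockout livers, against 347, 268 and 290.4 CPM in wild-type livers. It was thus lower in the knockout after a fast, at -0.48 (SE 0.14, adjusted p = 0.00944), and higher in fed animals, at 1.20 (SE 0.15, adjusted p = 8.16e-06). With library sizes alone the fasted Ephx1 value turned to 0.028, and that of Aox1 to 0.042. Ugdh, which makes UDP-glucuronate for glucuronidation, was higher by 1.21 fasted and 1.41 fed. Among the export pumps, Abcc4 (chromosome 14, 118482692 to 118706219, minus strand), which sends bile acids and conjugates back to the blood, had the widest difference of the 4 pumps in both states. Abcc4 had 60.7, 82.5 and 73.9 CPM in fasted knockout livers, against 5.54, 6.39 and 7.699 CPM in fasted wild-type livers. Its level with food at will was 104, 88.5 and 82.3 CPM in knockout livers and 8.103, 15.9 and 11.1 CPM in wild-type livers. No knockout library came near a wild-type one. On the log2 scale the Abcc4 difference was 3.47 (SE 0.22, adjusted p = 1.00e-08) fasted and 2.97 (SE 0.20, adjusted p = 3.25e-08) fed. Abcc1, a pump for glutathione conjugates, was low in every group, with 11.2, 10.9 and 13.1 CPM in fasted knockout livers against 1.29, 2.25 and 2.47 CPM in fasted wild-type livers. In fed livers it had 13.2, 14.3 and 15.1 CPM in the knockout and 6.13, 5.996 and 5.599 CPM in wild type. The fitted log2 fold change of Abcc1 was 2.55 (SE 0.21, adjusted p = 8.96e-08) fasted and 1.26 (SE 0.17, adjusted p = 2.60e-05) fed. Abcc2, the pump of the bile canaliculus, was lower fasted, at -0.61 (SE 0.12, adjusted p = 0.000343), which became -0.10 (adjusted p = 0.417) with library sizes alone. Its fed value of 0.30 (SE 0.12, adjusted p = 0.0449) was lost without fed knockout library a, at 0.23 (adjusted p = 0.167), or c, at 0.33 (adjusted p = 0.0615), and without fed wild-type library a, at 0.31 (adjusted p = 0.0884), or b, at 0.22 (adjusted p = 0.187). Abcc3, on the blood side of the hepatocyte, was 0.21 (SE 0.12, adjusted p = 0.152) fasted and 0.66 (SE 0.12, adjusted p = 0.000333) fed.

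Of the 5 heme and iron genes 4 were higher in both states. Hmox1 (chromosome 8, 75093621 to 75100589, plus strand) encodes heme oxygenase 1, the inducible enzyme of heme breakdown, which macrophages also express. Hmox1 had 275, 192 and 293 CPM in fasted knockout livers, against 43.6, 57.1 and 40.7 CPM in fasted wild-type livers. In fed animals it had 181, 168 and 200.4 CPM in knockout livers, against 116, 102 and 104 CPM in wild-type livers. Fasted wild-type livers were lowest, and the knockout groups overlapped. For Hmox1 the log2 fold change was 2.42 (SE 0.17, adjusted p = 1.89e-08) fasted and 0.77 (SE 0.16, adjusted p = 0.000998) fed. The 10 macrophage markers passed as higher in 10 of 10 cases fasted and 8 of 10 fed, where 28.2% and 23.4% of all tested genes did. The part of these markers in the Hmox1 value was not tested. Blvrb, biliverdin reductase B, was higher by 0.69 fasted and 1.44 fed, and Slc48a1, a heme transporter of the endolysosome, by 1.67 and 1.89. Fth1, the heavy ferritin chain, was higher by 0.48 and 0.53. Ftl1, the light chain, did not pass, at 0.04 (SE 0.12, adjusted p = 0.811) fasted and 0.20 (SE 0.12, adjusted p = 0.194) fed, and 34.38% of its 100-base words also occur in transcripts of other genes. Osgin1, an oxidative-stress growth inhibitor, was higher by 0.81 fasted and 0.57 fed. Its fed call was lost without fed knockout library b, at 0.53 (adjusted p = 0.0834), or c, at 0.52 (adjusted p = 0.0931), and without fed wild-type library b, at 0.35 (adjusted p = 0.143).

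Genes outside the 37 were counted by list under the main scaling alone. Of 40 further NRF2 targets 39 were tested. In fasted knockout livers 13 were higher, as were 28.2% of all tested genes, and 18 lower, as were 28.1%. In fed ones 15 of these targets were higher, against 23.4% of all genes, and 18 lower, against 23%. Among them Slc7a11, the cystine importer that feeds glutathione synthesis, had 44.9, 52.8 and 46.4 CPM in fasted knockout livers, against 0.387, 0.125 and 0 CPM, or at most 3 counts a library, in fasted wild-type livers. Gsta3, an abundant liver glutathione S-transferase, was lower, at -1.54 (SE 0.13, adjusted p = 1.14e-07) fasted and -1.54 (SE 0.13, adjusted p = 2.09e-07) fed. Of 20 genes that control NRF2, 6 were higher and 4 lower fasted, against 28.2% and 28.1% of all genes. Fed, 7 were higher and 2 lower, against 23.4% and 23%. The small MAF partners Mafk and Maff were higher by 1.54 and 1.52 on the log2 scale fasted, and by 1.90 and 3.47 fed. Nfe2l1 went the other way fasted, with 116.2, 123.8 and 115.2 CPM in knockout livers against 216.8, 251.5 and 223 CPM in wild-type livers. Its fed groups overlapped. Sqstm1, which encodes the autophagy receptor p62 that binds KEAP1, had 962, 960.4 and 1114 CPM in fasted knockout livers, against 609, 640.2 and 578 CPM in fasted wild-type livers, a log2 fold change of 0.73 (SE 0.12, adjusted p = 7.37e-05). Fed, it was 1.52 (SE 0.12, adjusted p = 1.10e-07). Detoxification genes driven by the receptors AhR, CAR and PXR were in part lower. Of 23 tested, 7 were higher and 13 lower fasted, against 28.2% and 28.1% of all genes. Fed, 4 were higher and 12 lower, against 23.4% and 23%. Cyp2c29, a cytochrome P450 of this list, had 25.2, 31.4 and 41.3 CPM in fasted knockout livers, against 439.7, 718 and 687 CPM in fasted wild-type livers.

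The second comparison asked what a 24 h fast changed in each genotype. In knockout livers 1 of 37 members passed, against 1.39% of all tested genes: 0 as higher, where 0.792% of all tested genes did, and 1 as lower, where 0.599% did. That gene was Gpx2, at -0.94 (SE 0.17, adjusted p = 0.0285). By edgeR, 332 genes in all were called in the knockout. That count depended on single libraries: it was 4 without fasted knockout library a, 1242 without b and 4 without c, and 15, 349 and 51 without fed knockout libraries a, b and c. The Gpx2 call was lost without fasted knockout library a, at -0.80 (adjusted p = 0.122), or c, at -0.98 (adjusted p = 0.12), and without fed knockout library a, at -0.85 (adjusted p = 0.105), or c, at -0.95 (adjusted p = 0.0744). Members' values in the knockout ran from -0.94 to 0.55, with a median of 0.06.

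In wild-type livers 21 members passed, against 26.3% of all tested genes. After the fast 11 were higher, where 12.4% of all tested genes were, and 10 lower, where 14% were. Without fed wild-type library b 7 were higher and 9 lower, and with library sizes alone 7 and 12. All 4 pentose phosphate genes fell: G6pdx by 1.28, Pgd by 0.97, Tkt by 0.62 and Taldo1 by 0.40 on the log2 scale. The Taldo1 call was lost without fed wild-type library a, at -0.33 (adjusted p = 0.101), or c, at -0.40 (adjusted p = 0.0576), and without fasted wild-type library c, at -0.33 (adjusted p = 0.104). Hmox1 fell by 1.19, Abcc1 by 1.56, Gstm3 by 1.16, Gstm2 by 0.84 and Abcc4 by 0.84. For Abcc4 the call was lost without fed wild-type library b, at -0.56 (adjusted p = 0.0845), or fasted wild-type library a, at -0.74 (adjusted p = 0.0576). Gpx2 had no count fasted and 0.623, 0.654 and 0.713 CPM fed, from 6, 6 and 7 counts. Taking 3 counts in each fasted library as the limit that 0 allows, the fed mean was 1.69-fold above that limit. This leaves out the counting error of the fed libraries, so it is no firm bound. The other direction held Ephx1 at 1.52 (SE 0.15, adjusted p = 3.59e-06), Gsta2 at 1.54, Blvrb at 0.86, Aox1 at 0.75, Abcc2 at 0.69, Slc48a1 at 0.56 and Abcc3 at 0.49. Gstm4 was 0.89 and lost its call without fed wild-type library b, at 0.78 (adjusted p = 0.0539), or fasted wild-type library a, at 0.72 (adjusted p = 0.0631). Srxn1 and Prdx1 passed with all libraries, at 0.47 and 0.32, and lost their calls whichever 1 of the 6 wild-type libraries was left out, at 0.43 to 0.53 and 0.28 to 0.34. Gstm1, at 0.39, lost its call without fed wild-type library a (0.37), b (0.38) or c (0.41) or fasted wild-type library b (0.30). With library sizes alone Srxn1 was 0.29 (adjusted p = 0.196), Prdx1 0.13 (0.383), Gstm1 0.20 (0.209) and Abcc3 0.30 (0.0563). All 10 macrophage markers were lower in fasted wild-type livers, where 14% of all tested genes passed as lower. They stood beside the lower Hmox1 and Abcc1, and their part in these values was not tested. The fasting contrasts share the same libraries with the genotype contrasts above, so a low fasted wild-type value enters both.

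The third comparison, the interaction of genotype and fasting, asked whether the change with fasting differed between the genotypes. It passed for 12 members, against 12.1% of all tested genes, 7 of them more positive in the knockout, where 6.35% of all genes were, and 5 more negative, where 5.7% were. The positive ones held 3 of the 4 pentose phosphate genes, with Gpx2, Gstm3, Abcc1 and Hmox1. For Pgd the knockout changed by 0.19 with fasting and wild type by -0.97, a difference of 1.16 (SE 0.16, adjusted p = 0.000298). For G6pdx the changes were 0.15 in the knockout and -1.28 in wild type, a difference of 1.43 (SE 0.23, adjusted p = 0.000959). For Hmox1 they were 0.47 and -1.19, a difference of 1.66 (SE 0.23, adjusted p = 0.000328). All 10 macrophage markers had the same positive sign and passed too, with a median of 1.16, where 6.35% of all genes did. The part of these markers in the Hmox1 difference was not tested. Ephx1 led the other direction, with -0.16 in the knockout, 1.52 in wild type and a difference of -1.68 (SE 0.20, adjusted p = 0.000128). Abcc2, Aox1 and Blvrb followed, at -0.91, -0.90 and -0.75. Tkt and Abcc1 were 0.89 and 1.28. Gsta2, at -1.46, kept its call without fasted knockout library b, fed wild-type library c or fed knockout library c, and lost it without any other 1 library, at -1.02 to -1.54. Gstm3, at 1.38, kept its call without fasted knockout library a, fed wild-type library a, fed knockout library b or fasted wild-type library b, and lost it without any other 1 library, at 1.12 to 1.38. Nqo1, Cbr3, Gclc, Gsr and Srxn1, higher in knockout livers of both states, did not pass the interaction, with differences from -0.33 to 0.17 and standard errors from 0.18 to 0.44.

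**Figure D3:**
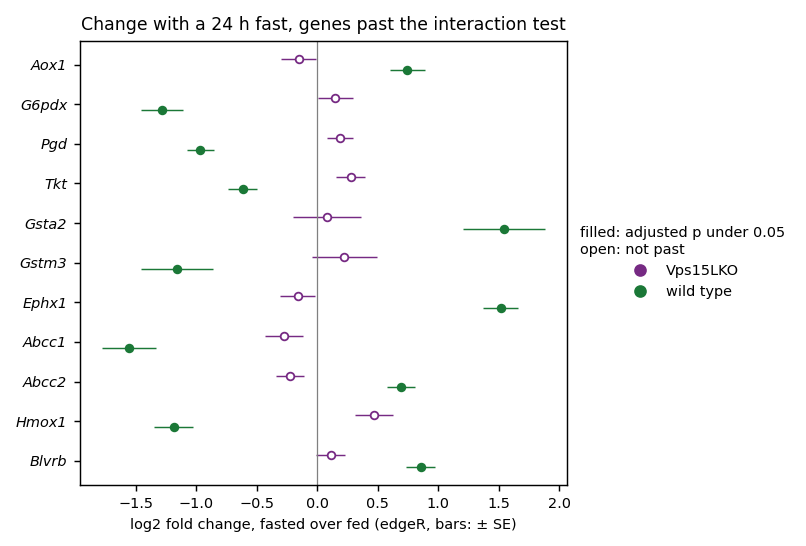
Log2 fold change with a 24 h fast, fasted over fed, in Vps15LKO (purple, upper point) and wild-type livers (green, lower point), with standard errors, for 11 of the 12 members past the interaction test; Gpx2, with no count in fasted wild-type livers, is left out. Wild-type values are filled and lie from -1.56 to 1.54, and knockout values are open and lie between -0.27 and 0.47.

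In MEFs the deposited values are on a log2 scale, and differences below are differences of these values. Whole counts recovered from them, used for depth and as an alternative, summed to 19345029 to 21245006 per library. The members took 0.709 to 0.945% of them. CRE library 3 at 4 h of replenishment stood apart from its replicates (chi-square per degree of freedom of 18.1 and 16.3 against libraries 1 and 2), where other replicate pairs had 1.81 to 4.71. Fibroblast markers were present, and 8 of the 10 hepatocyte markers were in the table, with 0 to 3 of them at 0 in a group and a sum of 76.7 to 114 CPM over the libraries. Of the 37 members 7 were not tested, namely Gpx2, Gsta1, Gsta2, Gstm3, Gstm4, Abcc2 and Abcc3, whose values lay between the lowest possible value of 4.17 and 5.35. Several of the genes that differed most in liver were therefore at or near the floor of the scale in these cells.

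The MEF headings have to be read with care. The differences CRE minus GFP, taken over all 13914 tested genes, had a Pearson correlation across genes of 0.905 between basal and deprived medium and of 0.871 between 1 h and 4 h of replenishment. Between these pairs of media the correlations were negative, from -0.611 to -0.547, although no library is shared and genes are not independent replicates. Among the 30 tested members 28 had the same sign in basal and deprived medium, 28 at 1 h and 4 h, and 6 to 10 across the pairs. Of all tested genes 85.4% had the same sign in basal and deprived medium, 81.8% at 1 h and 4 h, and 29.1 to 31.7% across the pairs. Pik3r4 was not lower under CRE in any medium. By limma it passed as higher under CRE in basal medium, at 0.23 (adjusted p = 0.000332), and when deprived, at 0.21 (adjusted p = 0.000557). It also passed as higher at 1 h, at 0.15 (adjusted p = 0.0163), and did not pass at 4 h, at 0.05 (adjusted p = 0.414). Which heading holds the knockout in which medium cannot be decided from these values, and results are given by column heading, CRE or GFP.

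Compared by heading, members were more often lower under CRE in basal and deprived medium and more often higher after replenishment. In basal medium 26 of 30 passed, against 58.3% of all genes. Of these 9 were higher, where 29.7% of all genes were, and 17 lower, where 28.6% were. In deprived medium 27 passed, against 62.6%, and 8 were higher, against 32%, and 19 lower, against 30.6%. At 1 h 25 passed, against 55%, and 20 were higher, against 26.9%, and 5 lower, against 28.1%. At 4 h 28 passed, against 59.8%, and 24 were higher, against 30.8%, and 4 lower, against 29%; without CRE library 3 at 4 h these were 23 and 4. The median member difference was -0.21, -0.31, 0.27 and 0.42, beside medians of all genes within 0.01 of 0. Shifting every library to 1 median moved the split of all genes called in basal medium to 3204 higher and 5111 lower, beside 4127 and 3986 on the deposited scale, and that at 1 h to 4903 and 3067, beside 3745 and 3913.

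**Figure D4:**
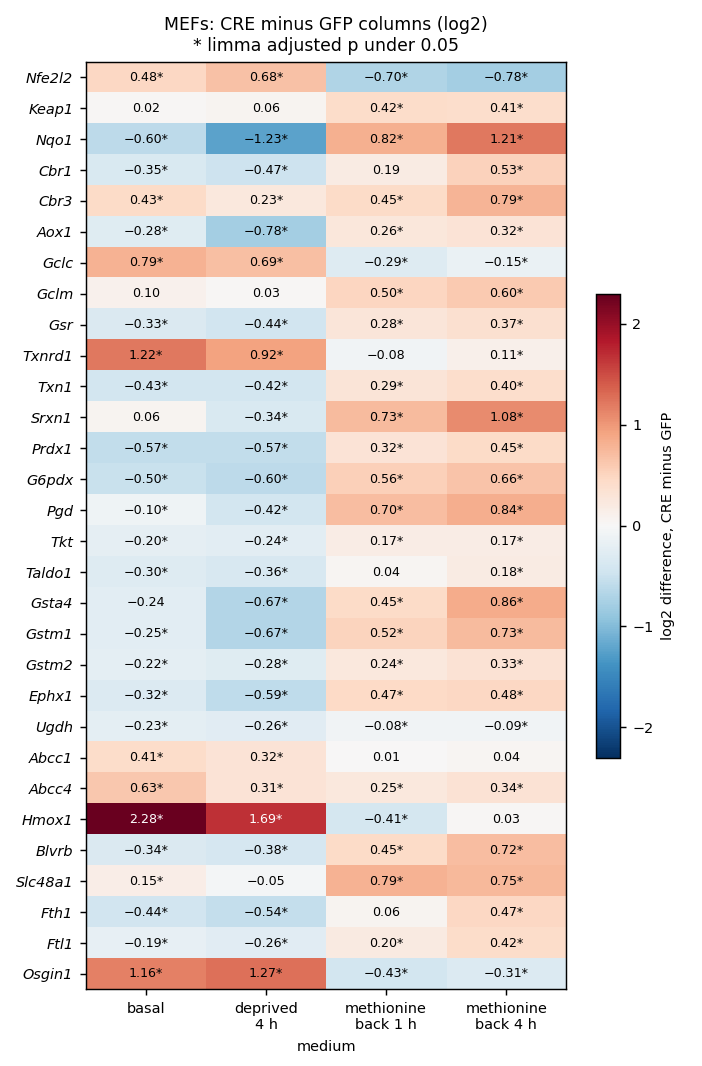
Difference CRE minus GFP (log2) for the 30 tested members in the 4 media, with red for higher under CRE, blue for lower and an asterisk for a limma adjusted p under 0.05. Most rows change colour between the columns for basal and deprived medium and those for 1 h and 4 h of replenishment; Cbr3 and Abcc4 are red with an asterisk in all 4 columns, and Ugdh is blue with an asterisk in all 4.

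Most of the members called in all 4 media changed sign between the pairs of media. Those lower under CRE in basal and deprived medium and higher at 1 h and 4 h, past the threshold in all 4 media, were 13: Nqo1, Aox1, Gsr, Txn1, Prdx1, G6pdx, Pgd, Tkt, Gstm1, Gstm2, Ephx1, Blvrb and Ftl1. Of all 13914 tested genes 11.4% had this pattern. Those with the reverse pattern were 3 of the 30, Nfe2l2, Gclc and Osgin1, beside 14.5% of all tested genes. Cbr3 and Abcc4 were higher under CRE in all 4 media, Ugdh was lower in all 4, as were 1.76% and 0.985% of all tested genes, and the other 11 followed none of these patterns. Some of these calls rest on 1 library. Pgd in basal medium was lost without GFP library 2, at -0.08 (adjusted p = 0.0592), or 3, at -0.08 (adjusted p = 0.0655). Aox1 at 1 h was lost without GFP library 2, at 0.24 (adjusted p = 0.0513), GFP library 3, at 0.23 (adjusted p = 0.0611), or CRE library 2, at 0.20 (adjusted p = 0.0961). Gstm2 was lost in basal medium without GFP library 1 (-0.14) or 2 (-0.22) or CRE library 3 (-0.18), in deprived medium without GFP library 1 (-0.21), and at 1 h without GFP library 3 (0.18) or CRE library 1 (0.21). Ugdh was lost at 1 h without GFP library 2 or 3 or CRE library 1, 2 or 3 (-0.07 to -0.09), and at 4 h without GFP library 2 or 3 or CRE library 1 or 2 (-0.06 to -0.09). With libraries shifted to 1 median Ugdh was -0.016 (adjusted p = 0.71) at 1 h and -0.049 (0.224) at 4 h.

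Nfe2l2 had log2 values of 12.63, 12.63 and 12.63 under CRE in basal medium, against 12.20, 12.13 and 12.13 under GFP. After deprivation it had 12.76, 12.79 and 12.76 under CRE and 12.10, 12.12 and 12.06 under GFP. At 4 h of replenishment it had 12.05, 12.09 and 11.94 under CRE and 12.78, 12.77 and 12.87 under GFP. The headings did not overlap in any of these media, and which one was high changed with replenishment. Its differences were 0.48 (SE 0.04, adjusted p = 1.11e-12) in basal medium, 0.68 (SE 0.04, adjusted p = 1.94e-16) when deprived, -0.70 (SE 0.04, adjusted p = 1.41e-16) at 1 h and -0.78 (SE 0.04, adjusted p = 6.10e-18) at 4 h. Keap1 had differences of 0.02 and 0.06, which did not pass, and of 0.42 and 0.41, which did.

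Nqo1, the quinone reductase, went the other way. It had 10.00, 10.09 and 9.89 under CRE in basal medium, against 10.59, 10.58 and 10.62 under GFP. When deprived it had 9.92, 9.99 and 9.99 under CRE and 11.23, 11.19 and 11.19 under GFP, and at 4 h 10.89, 10.84 and 10.88 under CRE and 9.66, 9.68 and 9.62 under GFP. GFP libraries were all higher before replenishment and all lower after it. The differences were -0.60 (SE 0.05, adjusted p = 1.34e-12), -1.23 (SE 0.05, adjusted p = 1.94e-20), 0.82 (SE 0.05, adjusted p = 1.10e-15) and 1.21 (SE 0.05, adjusted p = 2.79e-20) in basal, deprived, 1 h and 4 h medium. G6pdx, Prdx1 and Gsr showed this order too, with basal differences of -0.50, -0.57 and -0.33 and 4 h differences of 0.66, 0.45 and 0.37. Srxn1 did not pass in basal medium, at 0.06 (SE 0.04, adjusted p = 0.132), and was -0.34 when deprived, 0.73 at 1 h and 1.08 at 4 h.

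Hmox1 showed the widest difference of any member. It had 12.98, 13.14 and 13.09 under CRE in basal medium, against 10.78, 10.79 and 10.80 under GFP, a difference of 2.28 (SE 0.05, adjusted p = 4.69e-28). When deprived it had 13.47, 13.48 and 13.51 under CRE and 11.82, 11.76 and 11.82 under GFP, a difference of 1.69 (SE 0.05, adjusted p = 2.08e-24). At 1 h it had 12.25, 12.23 and 12.32 under CRE and 12.60, 12.69 and 12.75 under GFP, and at 4 h 13.13, 13.15 and 13.21 under CRE and 13.06, 13.09 and 13.26 under GFP, where the headings overlapped. The heading gap had the opposite sign at 1 h, -0.41 (SE 0.05, adjusted p = 3.30e-09), and did not pass at 4 h, 0.03 (SE 0.05, adjusted p = 0.592). Txnrd1, thioredoxin reductase, differed by 1.22 in basal and 0.92 in deprived medium, by -0.08 (SE 0.04, adjusted p = 0.0665) at 1 h and by 0.11 (SE 0.04, adjusted p = 0.015) at 4 h, where its libraries overlapped. The Txnrd1 call at 4 h was lost without CRE library 3, at 0.08 (adjusted p = 0.0717), or GFP library 1, at 0.06 (adjusted p = 0.198). Osgin1 differed by 1.16, 1.27, -0.43 and -0.31 in the 4 media, and Gclc by 0.79, 0.69, -0.29 and -0.15. The export pump Abcc4 kept its sign, with 11.09, 11.03 and 11.05 under CRE and 10.36, 10.46 and 10.45 under GFP in basal medium and differences of 0.63, 0.31, 0.25 and 0.34. Cbr3, a carbonyl reductase, differed here by 0.43, 0.23, 0.45 and 0.79. The deprived Cbr3 call was lost without GFP library 1 (0.25), 2 (0.21) or 3 (0.24) or CRE library 3 (0.17), and with libraries shifted to 1 median (0.16).

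**Figure D5:**
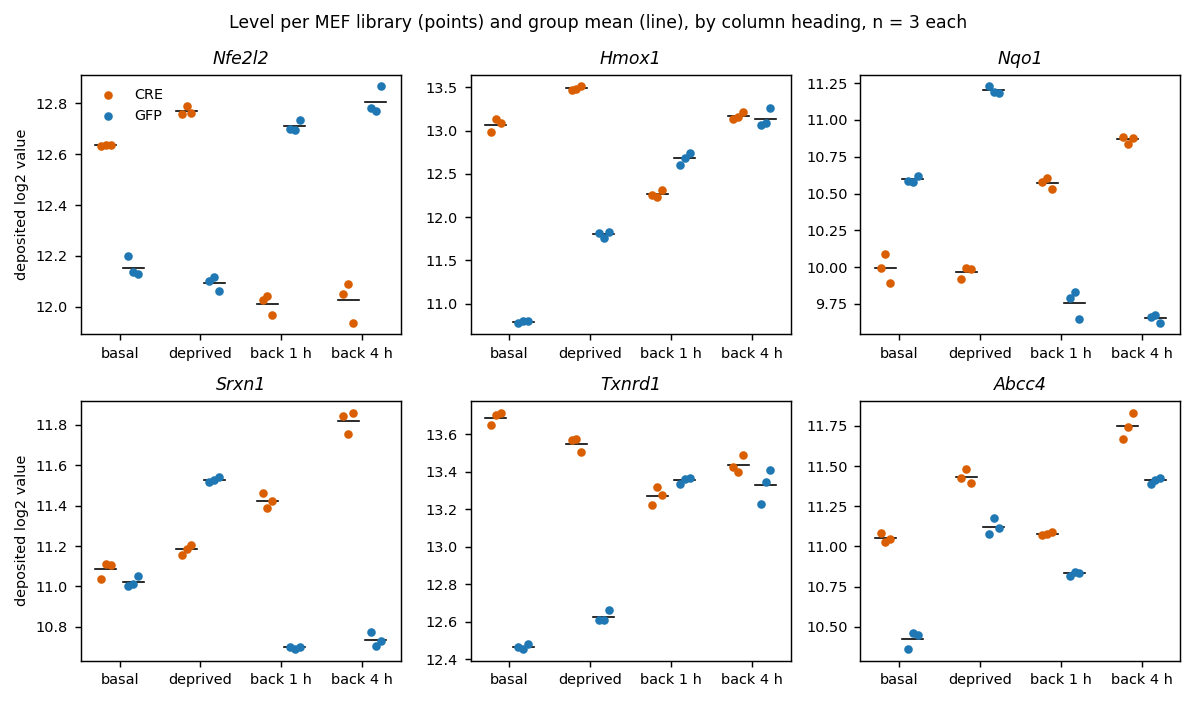
Deposited log2 value of 6 members in each MEF library, CRE (orange, left) and GFP (blue, right), in the 4 media in their order (points: 3 libraries a group, lines: means). Nfe2l2 and Nqo1 swap their order between the headings after replenishment, in opposite directions, while Abcc4 is higher under CRE in all 4 media.

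Methionine deprivation for 4 h was compared with basal medium within each heading. Under CRE 14 of 30 members passed, against 28.5% of all genes: 8 were higher, against 15% of all genes, and 6 lower, against 13.5%. Under GFP 16 passed, against 23.6%: 14 were higher, against 10%, and 2 lower, against 13.6%. Members higher under both headings were Gclc, Srxn1, Abcc4, Hmox1, Slc48a1, Fth1 and Ftl1. How many of all genes were higher, or lower, under both headings was not counted. Hmox1 was higher by 0.42 under CRE and 1.01 under GFP, Abcc4 by 0.38 and 0.70, and Fth1 by 0.27 and 0.37. Srxn1 was 0.10 under CRE, a call lost without basal CRE library 1 (0.075) or 3 (0.108) or deprived CRE library 2 (0.097) or 3 (0.087) or with libraries shifted to 1 median (0.086), and 0.51 under GFP. Nqo1 was -0.03 (SE 0.05, adjusted p = 0.723) under CRE and 0.60 (SE 0.05, adjusted p = 1.46e-11) under GFP. Txn1 and Ugdh were lower under both headings, at -0.16 and -0.19 under CRE and -0.16 and -0.16 under GFP. The Txn1 call was lost under CRE without basal library 2 (-0.14) or 3 (-0.13) or deprived library 1 (-0.13), and under GFP without basal library 3 (-0.12) or deprived library 1 (-0.10). The interaction of heading and deprivation passed for 11 members, against 4.78% of all genes, for 1 member as more positive under CRE, where 3.23% of genes were, and for 10 as more negative, where 1.55% were. Of all genes these were 450 and 215. They became 260 to 338 and 94 to 142 without basal GFP library 3, deprived GFP library 1 or 2, basal CRE library 1 or deprived CRE library 1, 2 or 3, and 679 and 430 with only the compared groups. Nqo1 led these at -0.63, before Hmox1 at -0.59 and Aox1 at -0.50, and the Aox1 call was lost without basal GFP library 3, deprived GFP library 1 or 2, basal CRE library 1 or deprived CRE library 2 or 3, at -0.43 to -0.49. The 1 positive member was Nfe2l2, at 0.20, lost without basal GFP library 1, deprived GFP library 1 or 3, basal CRE library 1 or deprived CRE library 2, at 0.17 to 0.20.

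Replenishment was compared with deprivation, where the opposite sign of the heading differences described above enters every value. At 1 h, 25 members passed under CRE and 27 under GFP, against 60.1% and 59.5% of all genes. Of these 18 were higher and 7 lower under CRE, against 30% and 30.1% of all genes, and 6 higher and 21 lower under GFP, against 30.7% and 28.8%. At 4 h, 27 passed under CRE and 29 under GFP, against 51.8% and 66.1%. Of these 22 were higher and 5 lower under CRE, against 26% and 25.9%, and 7 higher and 22 lower under GFP, against 33.3% and 32.8%. Nqo1 at 4 h changed by 0.90 under CRE and -1.55 under GFP, and Hmox1 by -0.32 and 1.33. A change with time and an exchange of headings cannot be told apart in these values. Without CRE library 3 at 4 h the counts under CRE were 22 higher and 5 lower. The contrast of 4 h with 1 h lies within the media whose headings went together. There 16 members passed under CRE and 13 under GFP, against 25.4% and 36.7% of all genes. Of these 13 were higher and 3 lower under CRE, against 13.4% and 12% of all genes, and 6 higher and 7 lower under GFP, against 17.9% and 18.8%. Without CRE library 3 at 4 h the counts under CRE were 13 higher and 2 lower. Hmox1 rose by 0.90 under CRE and 0.46 under GFP, Abcc4 by 0.67 and 0.58, and Gclc by 0.37 and 0.23. Srxn1 and Nqo1 rose under CRE, by 0.39 and 0.30, and were 0.04 (SE 0.04, adjusted p = 0.426) and -0.10 (SE 0.05, adjusted p = 0.0869) under GFP. Between liver and MEFs no difference was tested, since the values are on different scales and were made separately.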

How the data were processed

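The liver table was deposited as raw counts per gene; HISAT2, Subread, DESeq2, edgeR and mm10 stand in its list of tools and builds, per the submitters' processing notes. The MEF table was deposited on a log2 scale, as values of a variance-stabilizing transformation made by the authors; its list holds STAR 2.7.10b, featureCounts, DESeq2, limma and mm10, per the submitters' processing notes. How multi-mapped reads were treated, filters and other versions are not given in the sources used here. Libraries were made with dUTP, which keeps the strand, per the labels' protocols, and whether counting used it is not given. Columns not used numbered 0. Liver column names show the group alone, so libraries are called a, b and c.

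Of 136300 liver rows, 87774 carry NONCODE identifiers (20.5 to 24.8% of counts). The filter filterByExpr left 23875 genes. Factors from edgeR's TMM method (0.801 to 1.22) scaled the libraries, and edgeR 4.0.16 fitted its quasi-likelihood model over all 12. Standard errors are log2 fold changes, without sign, over the root of the F statistic. CPM are relative to the scaled library size. For MEFs, limma 3.58.1 (trend, robust) was fitted over 24 libraries to 13914 genes, those exceeding the floor of the scale by 1 or more on average. A count model had been planned for whole counts alone, so the deposited log2 scale kept limma; counts recovered from it served for depth and as an alternative. Benjamini-Hochberg adjustment covered every tested gene, at 0.05. DESeq2 1.42.0, other scalings and filters, a replicate block and left-out libraries were the alternatives. Scripts were tested on simulated data. Replicate liver libraries differed by a chi-square per degree of freedom of 6.59 to 14.6, where sampling alone gives 1, and no library was counted as a repeat of another. Depth limits low genes such as Gpx2.

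Members and lists were chosen with earlier results of these data known. Any member may be named. Outside them, Pik3r4 and up to 4 genes a list, by smallest adjusted p in a comparison, may be named. Coordinates are from GENCODE M21 (mm10) and promoter windows from RefSeq (GRCm38.p6), matched by symbol.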

Additional observations from a re-analysis of the deposited data

Results flagged for a closer look

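In liver the change with fasting differed between knockout and wild type, by the interaction test, for 12 members, given here as the log2 change in the knockout minus that in wild type. G6pdx had 1.43, Pgd 1.16, Tkt 0.89, Gstm3 1.38, Abcc1 1.28 and Hmox1 1.66. Ephx1 had -1.68, Gsta2 -1.46, Abcc2 -0.91, Aox1 -0.90 and Blvrb -0.75. Gpx2 had a fitted 5.02, which depends on the prior count because fasted wild-type libraries held no count, and is no bound.

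In MEFs the difference CRE minus GFP after replenishment, less that in basal medium, passed for 29 of 30 tested members at 1 h and 30 of 30 at 4 h, where 64% and 66.5% of all genes passed, and that after deprivation for 11, where 4.78% did. At 1 h the members with a size of 1 or more were Hmox1 at -2.69, Osgin1 at -1.59, Nqo1 at 1.42, Txnrd1 at -1.30, Nfe2l2 at -1.18, Gclc at -1.08 and G6pdx at 1.06. At 4 h they were Hmox1 at -2.25, Nqo1 at 1.82, Osgin1 at -1.47, Nfe2l2 at -1.26, G6pdx at 1.16, Txnrd1 at -1.11, Gsta4 at 1.10, Blvrb at 1.06, Srxn1 at 1.02 and Prdx1 at 1.02. These values hold the change of sign over all genes between the media, and headings are given as deposited.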

How the results depend on the processing

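Of 8792 values of single genes under alternatives, 8481 kept their side of the threshold, 225 were no longer past it, 82 newly passed and 4 reversed. A change of sign was counted as reversed only where the value passed in the main fit or in the alternative. The reversed ones were the fasted knockout over wild-type values with library sizes alone, of Keap1 (0.32), Aox1 (0.042), Prdx1 (0.33) and Ephx1 (0.028). That scaling gave 34 members higher and 0 lower fasted, and 37 and 0 fed, with 11731 higher and 3576 lower of all genes fasted and 9968 and 3092 fed. Over all genes it shifted the median by 0.39 fed and -0.19 for fasting in wild type, where 1788 genes were then higher and 5216 lower, with 2232 and 1006 in the interaction. For fasting in the knockout, 3 members passed with no filter on low counts, 0 with only the compared groups, and 0 to 3 without single libraries. Of all genes there, 332 passed by edgeR, 932 by DESeq2, 27 with only the compared groups, and 836 higher and 722 lower with no filter. Counts of members passed in the other 19 comparisons stayed within 1.5 times under every alternative run. In MEFs the members CRE against GFP ranged from 25 to 27 in basal medium, 25 to 27 when deprived, 22 to 26 at 1 h and at 27 at 4 h without single libraries. By edgeR on the recovered counts 27, 27, 25 and 28 members passed in these media. Shifting libraries to 1 median moved all genes by 0.15 and 0.11 in the interactions at 1 h and 4 h, with 5878 higher and 3433 lower, and 5683 and 3749. It gave 3582 and 5449 CRE against GFP when deprived, and 4924 and 3575 at 4 h.

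The MEF replicate numbers were not taken to pair the libraries, since not every same-numbered pair correlated over 0.1. Deviations of same-numbered libraries correlated at -0.163 to 0.230 (median 0.02, with 10 of 84 pairs over 0.1), those of different numbers at -0.290 to 0.278 (9 of 168 over 0.1). As a hint from the data, not the design, 17 of 24 libraries correlated best with their own number. With the replicate block 28, 27, 26 and 28 members passed CRE against GFP in basal, deprived, 1 h and 4 h medium, beside 26, 27, 25 and 28 without it. The block gave 583 and 326 genes in the interaction with deprivation. In liver no paired analysis was possible because the columns carry no replicate numbers.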
